A study of Mus musculus with 3 samples.

Results

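The genes described here make, break down and read cyclic AMP and cyclic GMP in neuronal nuclei of tissue dissected as the lateral habenula (LHb), an epithalamic nucleus. They were chosen by symbol from the deposited count table. The choice took every gene named Pde or Adcy with a digit, every gene whose name begins with Gucy, Prkar or Prkac, and Prkg with a digit. Npr1, Npr2, Npr3, Nppc and Popdc3 were added by name. This gave 58 of the 32285 genes listed, of which 56 had at least 1 UMI (unique molecular identifier, marking a single captured transcript) in neuronal nuclei. No UMI of Gucy2d or Gucy2g was found in any nucleus. By role the genes were 10 adenylyl cyclases, 4 soluble and 5 membrane guanylyl cyclase genes, 4 genes of the natriuretic peptide system and 24 phosphodiesterases. The others were 6 subunits of protein kinase A (PKA), 2 of protein kinase G (PKG), the Popeye gene Popdc3, and Pde4dip and Pde12, which carry a Pde symbol without degrading cyclic nucleotides.

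Adenylyl cyclases make cyclic AMP downstream of G protein-coupled receptors or calcium, and guanylyl cyclases make cyclic GMP in response to nitric oxide or natriuretic peptides. Phosphodiesterases hydrolyse one or both nucleotides and so set where and for how long each acts. PKA and PKG are the kinases that the nucleotides switch on, and in neurons they phosphorylate channels, synaptic proteins and transcription factors.

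The nuclei came from mothers, virgin males and virgin females, with 3 mice pooled in each group and 1 library a group. Each library holds nuclei sorted by KASH-GFP, a fluorescent protein anchored at the outside of the nucleus, and the labels call the neurons KASH-GFP+ BNST LHb, BNST being the bed nucleus of stria terminalis. No source used here gives the strain or age of the mice, or how the fluorescent protein reached the neurons. The comparisons are of motherhood among females and of sex among virgin mice. Mothers were also compared with virgin males, where motherhood and sex differ together and cannot be told apart.

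Of 603 nuclei, 592 were annotated as neurons by the authors, 201 in mothers, 204 in virgin males and 187 in virgin females, and no cell barcode was shared between libraries. Neuronal nuclei of a library held 2122919 to 2718356 UMIs, and the median neuronal nucleus held 11898 UMIs in mothers, 9414 in virgin males and 13181 in virgin females. Levels are in CPM, the UMIs of a gene scaled to 1000000 UMIs of the neuronal nuclei considered, with exact Poisson 95% intervals in square brackets that cover counting error only. A floor of 3 UMIs stood at 1.11 to 1.41 CPM in a library. With 1 library a group no test between groups is possible, and every library difference below has no replicate check. The neurons were deposited in 5 clusters, numbered 0 to 4 and left unnamed here, of 75 to 172 nuclei each. Summed markers of the LHb (6 genes) stood at 1931 CPM in cluster 1 and 1807 CPM in cluster 4, against 889 to 1176 CPM in clusters 0, 2 and 3. Summed thalamic markers (6 genes) ran the other way, at 7049, 8215 and 10602 CPM in clusters 0, 2 and 3, against 2085 and 1316 CPM in clusters 1 and 4. Markers of the medial habenula (6 genes) stood at 426 CPM in cluster 1, 51.6 CPM in cluster 4 and 3.90 to 5.84 CPM elsewhere. GABAergic markers (4 genes) stood at 74.5 CPM in cluster 1, 132 CPM in cluster 4 and 0 to 8.37 CPM elsewhere. Their part in the member levels was not tested. Median depth was 9431 to 15007 UMIs per nucleus across the clusters. The clusters were computed from these same genes in these same nuclei, so every level by cluster is a description without a test.

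A gene was counted as marking a cluster where its highest cluster was at least 2-fold above the mean of the other 4 and was the same in 3 of 3 libraries, among genes with at least 100 UMIs. Of the 58 members, 36 reached that minimum and 7 (19.4%) marked a cluster, beside 10.2% of the 9111 genes of the table that reached it. Cluster 1 was marked by Pde1a, Pde3a and Gucy1a1, cluster 3 by Adcy1, Adcy8 and Pde7b, and cluster 4 by Prkg1. No member marked cluster 0 or 2. The highest cluster was the same in 3 of 3 libraries for 13 members (36.1%, beside 23.2% of all genes measured), and it was at least 2-fold above the lowest for 23 (63.9%, beside 41.3%). The median ratio of the highest cluster to the mean of the others was 1.52 for members and 1.42 for all genes measured. The count was 12 without virgin males and 8 without mothers, both holding the same 7 genes. Without virgin females it was again 7, but 5 were shared. Adcy1 and Adcy8 then fell under the 2-fold limit, at log2 ratios of 0.90 and 0.99, and Pde1c and Pde2a entered.

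A recurrent arrangement placed clusters 2 and 3 on one side and clusters 1 and 4 on the other. In 3 of 3 libraries both clusters 2 and 3 were above both clusters 1 and 4 for 8 of the 36 members (22.2%, beside 8.29% of all genes measured), namely Adcy1, Adcy8, Pde1b, Pde4d, Pde7b, Pde9a, Pde10a and Prkg2. The reverse held for 10 members (27.8%, beside 11.4%), namely Gucy1a1, Gucy1b1, Pde1a, Pde2a, Pde3a, Pde3b, Pde4a, Pde6d, Prkacb and Prkg1. This arrangement was chosen after the values had been seen. The summed thalamic and LHb markers given above are also split between these clusters, and their part in these levels was not tested. The arrangement leaves out cluster 0, whose marker levels lay on the side of clusters 2 and 3. Cluster 0 was highest for Pde1b and Pde4d of the first group and for Pde4a of the second.

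**Figure D1:**
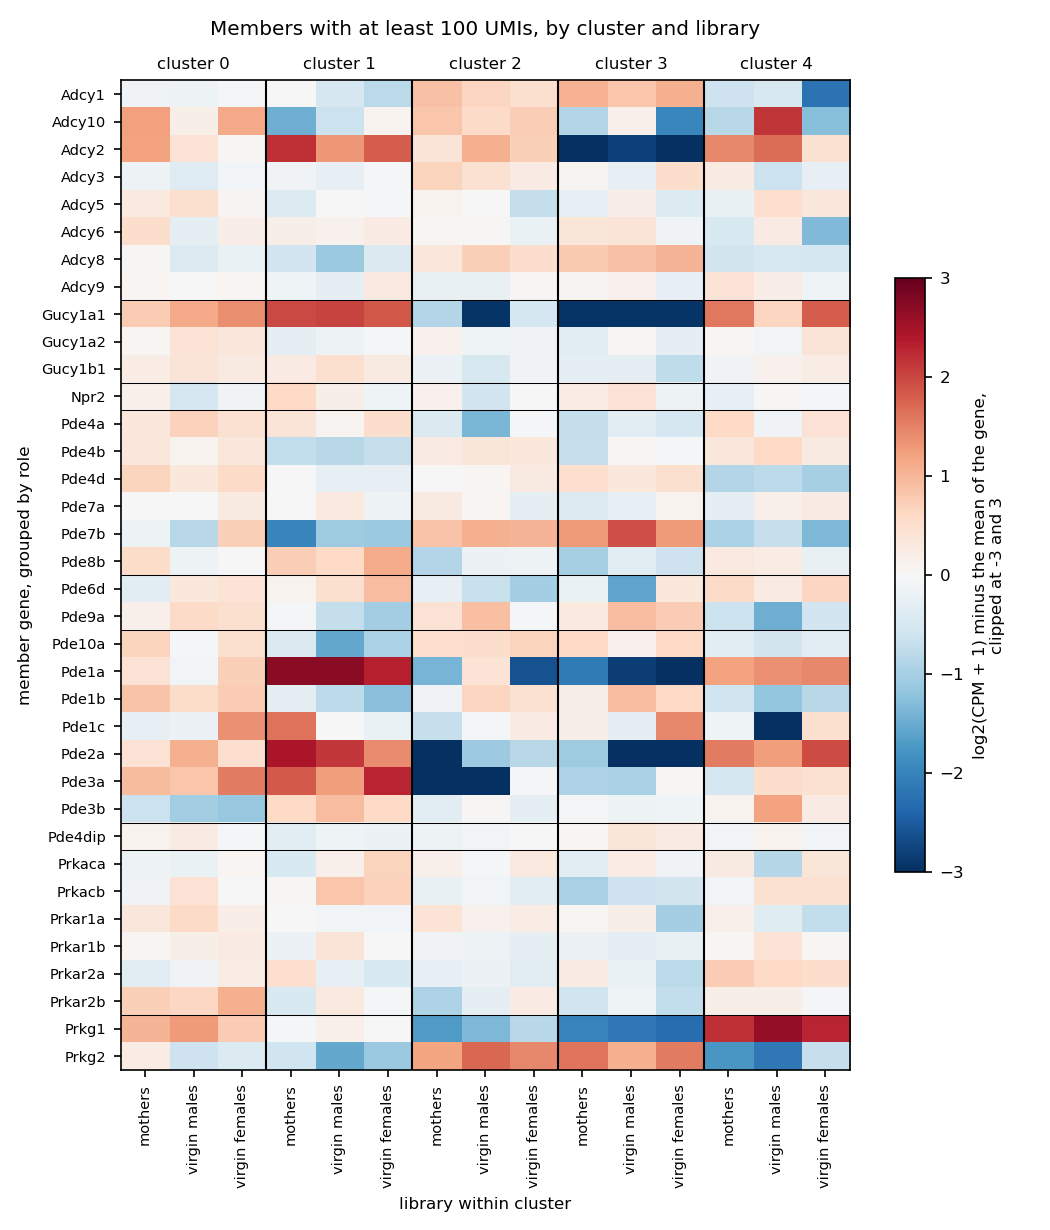
Each row is a member with at least 100 UMIs, grouped by role, and each column a library within a cluster; the colour is log2(CPM + 1) minus the mean of that gene over the 15 columns, clipped at -3 and 3. Adcy2, Gucy1a1, Pde1a, Pde2a, Pde3a and Prkg1 are low in cluster 3, where Adcy1, Adcy8, Pde7b and Prkg2 are high.

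Annotated starts of 4 members with contrasting patterns are printed with the bases around them. The windows of Pde7b and Prkar1a and the first of Prkg1 lie inside the span of the gene in GENCODE M21. They are not upstream of its outer start. Adcy1 and Pde7b marked cluster 3, Prkg1 marked cluster 4, and Prkar1a differed by 1.57-fold between its highest and lowest clusters. Prkar1a has 6 windows, of which 4 lack TGACGTCA, and the one printed is 1 of the 2 that hold it, chosen for that match. Each window runs from 250 bases before to 50 after a start annotated by RefSeq on GRCm38.p6, 5′ to 3′ on the strand of the gene. Capitals mark the letters TGACG (the start of a cyclic AMP response element, whose full palindrome is TGACGTCA and holds TGACG on both strands) and GGGCGG (a GC box), searched on both strands.
Adcy1, chr11:7063183-7063482, plus strand: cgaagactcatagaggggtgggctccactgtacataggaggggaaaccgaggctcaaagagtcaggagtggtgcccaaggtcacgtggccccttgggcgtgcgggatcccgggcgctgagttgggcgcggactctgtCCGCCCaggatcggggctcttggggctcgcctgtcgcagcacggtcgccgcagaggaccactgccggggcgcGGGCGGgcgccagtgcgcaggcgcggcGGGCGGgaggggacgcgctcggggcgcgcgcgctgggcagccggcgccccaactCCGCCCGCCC
Pde7b, chr10:20548279-20548578, minus strand: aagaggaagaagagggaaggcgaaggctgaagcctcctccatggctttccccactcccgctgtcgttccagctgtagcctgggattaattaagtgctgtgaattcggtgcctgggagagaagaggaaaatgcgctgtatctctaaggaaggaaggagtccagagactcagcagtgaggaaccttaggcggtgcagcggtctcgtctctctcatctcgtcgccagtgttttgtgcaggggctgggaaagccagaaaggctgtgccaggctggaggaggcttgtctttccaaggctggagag
Prkg1, chr19:31664321-31664620, minus strand: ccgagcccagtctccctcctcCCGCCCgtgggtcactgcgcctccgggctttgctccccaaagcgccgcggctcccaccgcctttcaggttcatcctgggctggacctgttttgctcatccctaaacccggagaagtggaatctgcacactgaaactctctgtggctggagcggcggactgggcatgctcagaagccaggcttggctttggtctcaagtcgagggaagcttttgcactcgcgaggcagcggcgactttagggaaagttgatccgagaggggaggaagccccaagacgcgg
Prkg1, chr19:31764984-31765283, minus strand: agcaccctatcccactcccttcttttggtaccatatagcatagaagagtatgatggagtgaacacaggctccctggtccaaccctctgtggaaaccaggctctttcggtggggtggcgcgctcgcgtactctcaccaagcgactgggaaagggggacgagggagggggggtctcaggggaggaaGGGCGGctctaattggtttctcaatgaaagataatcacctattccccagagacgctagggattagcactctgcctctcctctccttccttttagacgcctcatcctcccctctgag
Prkar1a, chr11:109650699-109650998, plus strand: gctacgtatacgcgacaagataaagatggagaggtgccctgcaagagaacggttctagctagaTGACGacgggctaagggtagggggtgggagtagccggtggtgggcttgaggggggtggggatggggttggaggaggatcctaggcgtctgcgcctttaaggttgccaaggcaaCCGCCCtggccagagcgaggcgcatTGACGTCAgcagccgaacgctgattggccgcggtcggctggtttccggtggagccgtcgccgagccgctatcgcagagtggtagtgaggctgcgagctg

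Windows were found for 46 of the 58 members, 87 windows in all, and not for Adcy6, Adcy8, Gucy2c, Pde3a, Pde3b, Pde6a, Pde6c, Pde6g, Pde7a, Pde9a, Popdc3 and Prkg2. The full palindrome TGACGTCA occurred in 2 overlapping windows of Prkar1a, 1 of the 46 genes, and in 1.79% of the 32851 windows of the whole table. The shorter TGACG occurred in 23% of member windows and 20.8% of all windows, and GGGCGG in 43.7% and 35.7%. The Adcy1 window held 5 matches to GGGCGG, each Prkg1 window 1, and the Pde7b window neither motif. A match is a description of the letters only. Prkg1 has alternative first exons that give the PKG I alpha and beta forms, and a 3′ count does not separate them.

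Among the adenylyl cyclases, the calcium and calmodulin-stimulated enzymes Adcy1 and Adcy8 were highest in cluster 3. Adcy8 stood there at 516 CPM in mothers, 556 CPM in virgin males and 613 CPM in virgin females. In cluster 1 it stood at 200.5 CPM in mothers, 139 CPM in virgin males and 220.5 CPM in virgin females, so that each library was more than 2-fold higher in cluster 3. The mean over libraries in cluster 3 was 2.05-fold above the mean of the other clusters, with cluster 2 next at 435 CPM. Adcy1 reached 158 CPM in mothers, 138 CPM in virgin males and 161 CPM in virgin females in cluster 3, and 49.5, 55.1 and 15.7 CPM in mothers, virgin males and virgin females in cluster 4. Its cluster 3 mean was 2.08-fold above the mean of the others.

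Adcy2, a cyclase stimulated by G protein beta-gamma subunits, was nearly absent from the cluster in which Adcy1 and Adcy8 were highest. Cluster 3 gave 0 UMIs in mothers, 2 in virgin males and 0 in virgin females, 1.36 CPM [0.16, 4.89] with the libraries pooled. Cluster 1 gave 142 CPM in mothers, 75.8 CPM in virgin males and 108 CPM in virgin females. Both mothers and virgin females had their highest Adcy2 level in cluster 1, while virgin males had theirs in cluster 4 at 99.2 CPM, so the gene did not count as marking a cluster. A UMI of Adcy2 was found in 2 of 91 nuclei of cluster 3 and in 69 of 157 nuclei of cluster 1, although the median depth in cluster 3 was the higher, 15007 UMIs against 9894. Adcy10, the bicarbonate-activated soluble cyclase, ranged from 8.60 CPM in cluster 3 to 27.6 CPM in cluster 0 with no order shared by the libraries. Adcy3, Adcy5, Adcy6 and Adcy9 differed by 1.24-fold to 1.61-fold between their highest and lowest clusters. Adcy7 gave 63 UMIs, under the minimum, and was highest in cluster 4 in each library, at 19.8 CPM in mothers, 71.6 CPM in virgin males and 26.2 CPM in virgin females. A single nucleus gave 7 of the 19 UMIs of Adcy7 in virgin males. Adcy4 gave 1 UMI.

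**Figure D2:**
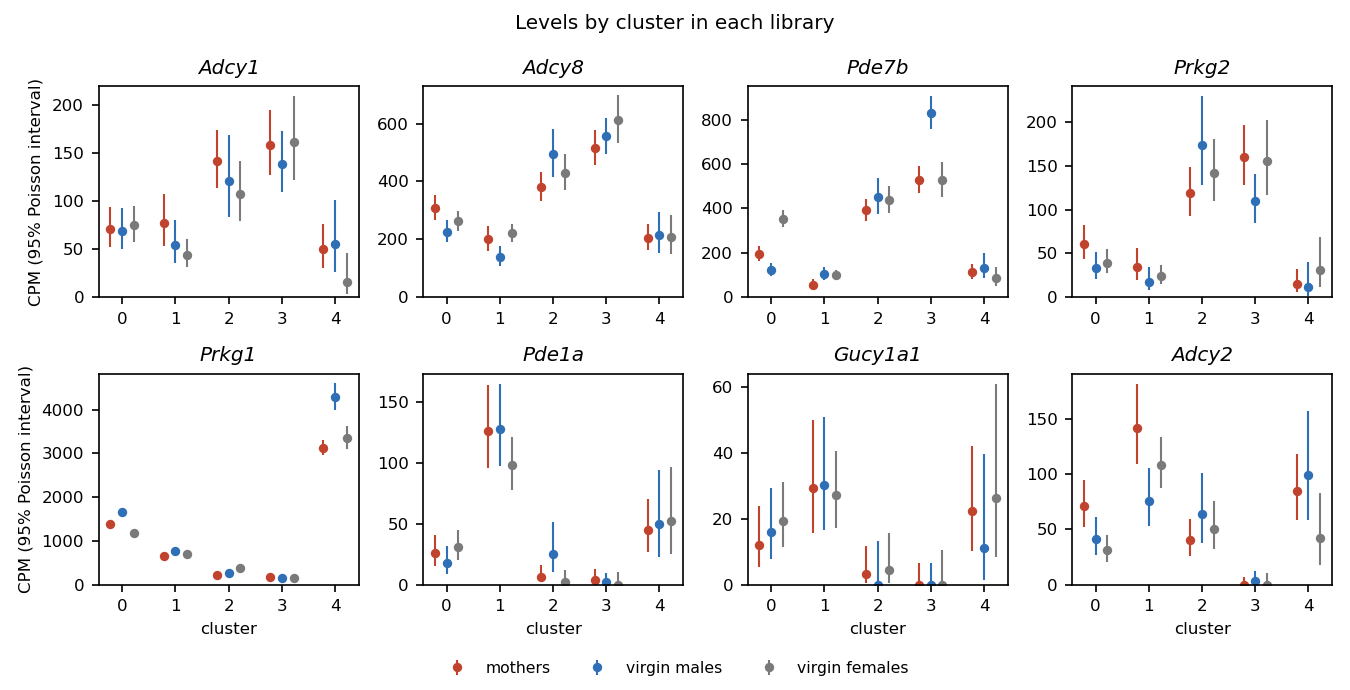
Each panel gives the CPM of a gene in the neuronal nuclei of clusters 0 to 4 on a linear axis from 0, with points for mothers, virgin males and virgin females and bars for the exact Poisson 95% interval. Adcy1, Adcy8, Pde7b and Prkg2 are high in clusters 2 and 3, where Prkg1, Pde1a and Gucy1a1 are low in the 3 libraries, and Adcy2 is at or near 0 in cluster 3.

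Nitric oxide acts on the soluble guanylyl cyclase, a heterodimer of an alpha and a beta subunit. The alpha subunit gene Gucy1a1 stood at 29.3 CPM in mothers, 30.3 CPM in virgin males and 27.1 CPM in virgin females in cluster 1. It gave 0 UMIs in cluster 3 in all of the libraries, against a floor of 2.03 CPM for the pooled cluster, and 4 UMIs in cluster 2. Cluster 1 was thus highest in each library, and in virgin males cluster 2 also gave 0 UMIs. The other alpha subunit gene, Gucy1a2, varied less, from 227 CPM in cluster 3 to 311 CPM in cluster 0. Gucy1b1, the common beta subunit, was lowest in cluster 3 at 29.5 CPM and highest in cluster 1 at 50.7 CPM, with cluster 1 highest in 3 of 3 libraries. The membrane guanylyl cyclases Gucy2c, Gucy2e and Gucy2f gave 1, 14 and 2 UMIs in neuronal nuclei.

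In the natriuretic peptide system, the receptor cyclase Npr2, which C-type natriuretic peptide activates, was measured at 37.2 CPM in mothers, 32.0 CPM in virgin males and 30.2 CPM in virgin females, and from 29.4 CPM to 38.6 CPM across clusters. Its levels overlapped within their counting intervals in the 3 libraries. Nppc, which encodes C-type natriuretic peptide, gave 63 UMIs, of which 55.6% lay in cluster 1. Npr1, the receptor for atrial natriuretic peptide, gave 13 UMIs, of which 5 in mothers came from 1 nucleus. Npr3, the clearance receptor, gave 1 UMI.

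Of the cyclic AMP-specific phosphodiesterases, Pde7b differed most between clusters. In cluster 3 it stood at 526 CPM in mothers, 831 CPM in virgin males and 527 CPM in virgin females, and in cluster 1 at 54.1 CPM in mothers, 102 CPM in virgin males and 99.0 CPM in virgin females. Cluster 3 was highest in each library, and its mean was 2.98-fold above that of the other clusters and 7.39-fold above that of cluster 1. The libraries differed in cluster 0, where Pde7b stood at 193 CPM [161, 229] in mothers, 121 CPM [95.6, 152] in virgin males and 353 CPM [314, 394] in virgin females. Its relative Pde7a stayed between 78.9 CPM and 95.3 CPM across clusters. Pde8b was highest in cluster 1 in each library at a mean of 144 CPM and lowest in cluster 3 at 52.0 CPM. The PDE4 genes took other shapes. Pde4d was highest in cluster 0 in each library, at 3223 CPM in mothers, 2527 CPM in virgin males and 3021 CPM in virgin females, and lowest in cluster 4 at a mean of 1091 CPM. Pde4b was lowest in cluster 1 at 374 CPM and stood at 553 CPM to 840.0 CPM elsewhere. Pde4a was lowest in clusters 2 and 3, at 45.4 CPM and 46.0 CPM, and highest in cluster 0 at 92.9 CPM. Pde8a and Pde4c, with 93 and 8 UMIs, were under the minimum.

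Of the phosphodiesterases that take both nucleotides, Pde1a, which calcium and calmodulin activate, stood at 126 CPM in mothers, 128 CPM in virgin males and 97.9 CPM in virgin females in cluster 1. In cluster 3 it gave 2 UMIs in mothers, 1 in virgin males and 0 in virgin females. The cluster 1 mean was 5.43-fold above the mean of the others, and cluster 4 came next at 48.8 CPM. A single nucleus gave 26 of the 87 Pde1a UMIs in virgin males. Without the richest nucleus of each library the log2 ratio of the highest cluster was 2.04, against 2.44 with all nuclei. Pde1a then still marked a cluster. Most cluster 1 nuclei gave no Pde1a UMI, with 11 of 39 positive in mothers, 13 of 53 in virgin males and 20 of 65 in virgin females. Its relative Pde1b ran the other way, with 58.0 CPM in cluster 3 and 63.5 CPM in cluster 0, against 22.8 CPM and 20.7 CPM in clusters 1 and 4. Pde2a, which cyclic GMP stimulates, was at 39.2 CPM in cluster 1 and 28.6 CPM in cluster 4, against 2.64 CPM and 1.20 CPM in clusters 2 and 3. Virgin females had their highest Pde2a level in cluster 4 and the other libraries in cluster 1.

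Pde3a, an enzyme that cyclic GMP inhibits, was at 42.8 CPM in mothers, 28.2 CPM in virgin males and 58.9 CPM in virgin females in cluster 1. It gave 0 UMIs in cluster 2 in mothers and virgin males and 5 in virgin females. Cluster 1 was highest in each library, 3.45-fold above the mean of the others. Pde3b averaged 109.8 CPM in cluster 1 and 102 CPM in cluster 4, against 34.6 CPM in cluster 0, where it was lowest. Pde10a, known for its abundance in striatal neurons, averaged 1182 CPM, 1341 CPM and 1239 CPM in clusters 0, 2 and 3, against 482 CPM and 686 CPM in clusters 1 and 4. Pde1c ranged from 8.54 CPM in cluster 4 to 18.8 CPM in cluster 1. Pde11a gave 77 UMIs, 48.1% of them in cluster 4, which was highest in each library at 59.4 CPM in mothers, 16.5 CPM in virgin males and 52.4 CPM in virgin females.

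Of the genes for cyclic GMP-specific phosphodiesterases and their subunits, Pde9a averaged 76.3 CPM in cluster 3 and 66.3 CPM in cluster 2, against 31.9 CPM and 25.9 CPM in clusters 1 and 4. Pde6d, whose product also carries prenylated proteins, was highest in cluster 1 at 34.0 CPM and lowest in cluster 2 at 14.8 CPM. Pde5a gave 68 UMIs and was highest in cluster 3 in mothers, at 30.5 CPM, and in virgin females, at 40.3 CPM, but stood at 1.75 CPM there in virgin males. The photoreceptor genes Pde6a, Pde6b, Pde6c, Pde6g and Pde6h gave 4 to 66 UMIs each. Pde4dip, which encodes the centrosomal protein myomegalin, differed by 1.35-fold between its highest and lowest clusters, and Pde12, a mitochondrial RNA-trimming enzyme, gave 37 UMIs.

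Among the PKA subunit genes, the catalytic subunit Prkaca and the regulatory subunits Prkar1a, Prkar1b and Prkar2a differed by 1.23-fold to 1.86-fold between highest and lowest cluster. Prkar2b, a regulatory subunit known from brain, was highest in cluster 0 in each library, at 72.3 CPM in mothers, 68.6 CPM in virgin males and 92.7 CPM in virgin females. Its cluster 0 mean was 1.97-fold above the mean of the others, just under the 2-fold limit, as was the 1.98-fold ratio of Pde8b, while Adcy8 at 2.05-fold lay just above it. The catalytic subunit Prkacb was highest in cluster 1 in each library, at a mean of 101 CPM, and lowest in cluster 3 at 41.3 CPM.

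The PKG genes took opposite clusters. Prkg1, which encodes the mostly cytosolic PKG I, stood in cluster 4 at 3134 CPM [2963, 3311] in mothers, 4291 CPM [3995, 4603] in virgin males and 3357 CPM [3102, 3627] in virgin females. In cluster 3 it stood at 171 CPM in mothers, 154 CPM in virgin males and 141 CPM in virgin females. The order of clusters from highest to lowest was 4, 0, 1, 2 and 3 in each library, and the mean in cluster 4 was 5.63-fold above the mean of the others. Prkg2, which encodes the membrane-bound PKG II, stood in cluster 2 at 119 CPM in mothers, 174 CPM in virgin males and 142 CPM in virgin females, and in cluster 3 at 159.9 CPM, 110.2 CPM and 155 CPM. In cluster 4 it gave 6, 2 and 6 UMIs in those libraries, a mean of 19.1 CPM. Cluster 3 was highest for Prkg2 in mothers and virgin females and cluster 2 in virgin males, so the gene did not mark a single cluster.

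Single nuclei showed the same contrast. The median nucleus of cluster 4 held 3537 CPM of Prkg1, with quartiles of 2069 CPM and 5061 CPM, against a median of 109.0 CPM in cluster 3, with quartiles of 0 and 224 CPM. After each nucleus had been thinned to 5000 UMIs, 92.8% of 69 nuclei of cluster 4 held a UMI of Prkg1 without one of Prkg2, 5.80% held both and none held Prkg2 alone. In cluster 0, 83.8% of 154 nuclei held Prkg1 alone and none Prkg2 alone. In cluster 3, 21.3% of 89 nuclei held Prkg1 alone, 27.0% Prkg2 alone, 24.7% both and 27.0% neither. Cluster 2 resembled these shares, with 29.8%, 21.3%, 21.3% and 27.7% of 94 nuclei in the same order. Before thinning a UMI of Prkg2 was found in 81.3% of nuclei of cluster 3 and 16.0% of cluster 4, and one of Prkg1 in 72.5% and 98.7%. No cell type lacking these genes was large enough to give a background share from free RNA, since only 11 nuclei were not neuronal. Gene length and intron counting bear on detection, so shares of Prkg1 and Prkg2 are not ranked against each other.

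**Figure D3:**
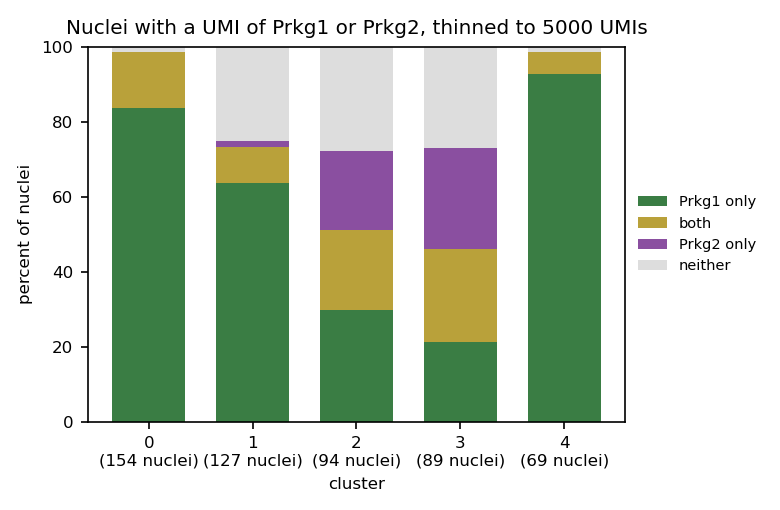
Stacked bars give, for each cluster, the percent of neuronal nuclei thinned to 5000 UMIs that held a UMI of Prkg1 only, of both genes, of Prkg2 only or of neither, with the libraries pooled. Prkg1 alone takes 92.8% of cluster 4 and 21.3% of cluster 3, and Prkg2 alone is found in clusters 1, 2 and 3 only.

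Popdc3, a membrane protein that binds cyclic AMP through its Popeye domain, was found mainly in cluster 1, which held 85 of its 94 UMIs (90.4%). No Popdc3 UMI was found in the 97 nuclei of cluster 2 or the 91 of cluster 3, against floors of 2.20 CPM and 2.03 CPM. Cluster 1 was highest in each library. Within cluster 1 a UMI was found in 5 of 39 nuclei of mothers, 12 of 53 of virgin males and 17 of 65 of virgin females, so the gene was detected in a minority of the cluster.

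Members were next compared between libraries over all neuronal nuclei. A gene was called where the CPM ratio was at least 1.5-fold in either direction and its exact counting interval left out 1, among genes with at least 50 UMIs in the pair. For mothers over virgin females, 42 members were measured and 4 were called, beside 5.65% of 10388 genes of the table. None was higher in mothers (2.78% of all genes were), and Popdc3, Nppc, Pde3a and Gucy1b2 were lower (2.87% of all genes were). Popdc3 was added to the members by name when its lower level in mothers was already known. The count of 4 is therefore in part set by that choice. For virgin males over virgin females, 40 were measured and 4 were called, beside 5.5% of 10024 genes, with none higher in virgin males (2.23% of all genes) and Nppc, Pde3a, Gucy1b2 and Pde1c lower (3.26% of all genes). For mothers over virgin males, 38 were measured and 0 were called, beside 5.05% of 9990 genes (2.92% higher and 2.12% lower in mothers), while the counting interval lay above 1 for 3 members and below 1 for 4. The first comparisons share the virgin female library, so that a high value there lowers both ratios. The median log2 ratio of measured members was -0.02 for mothers over virgin females, beside -0.01 for all genes. It was -0.00 for virgin males over virgin females, beside -0.03, and -0.02 for mothers over virgin males, beside 0.02. Without the nucleus richest in each gene in each library, 3 members were called for mothers over virgin females (Nppc was lost) and 1 for virgin males over virgin females (Pde3a). The log2 ratio of Nppc was then -1.71 for mothers and -1.88 for virgin males, and that of Gucy1b2 -1.97 for virgin males, close to the values with all nuclei, and these pairs had fallen under the minimum of 50 UMIs. That of Pde1c for virgin males was -0.79, against -1.15 with all nuclei. In nuclei thinned to 5000 UMIs none of the 5 called members reached 50 UMIs in a pair.

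**Figure D4:**
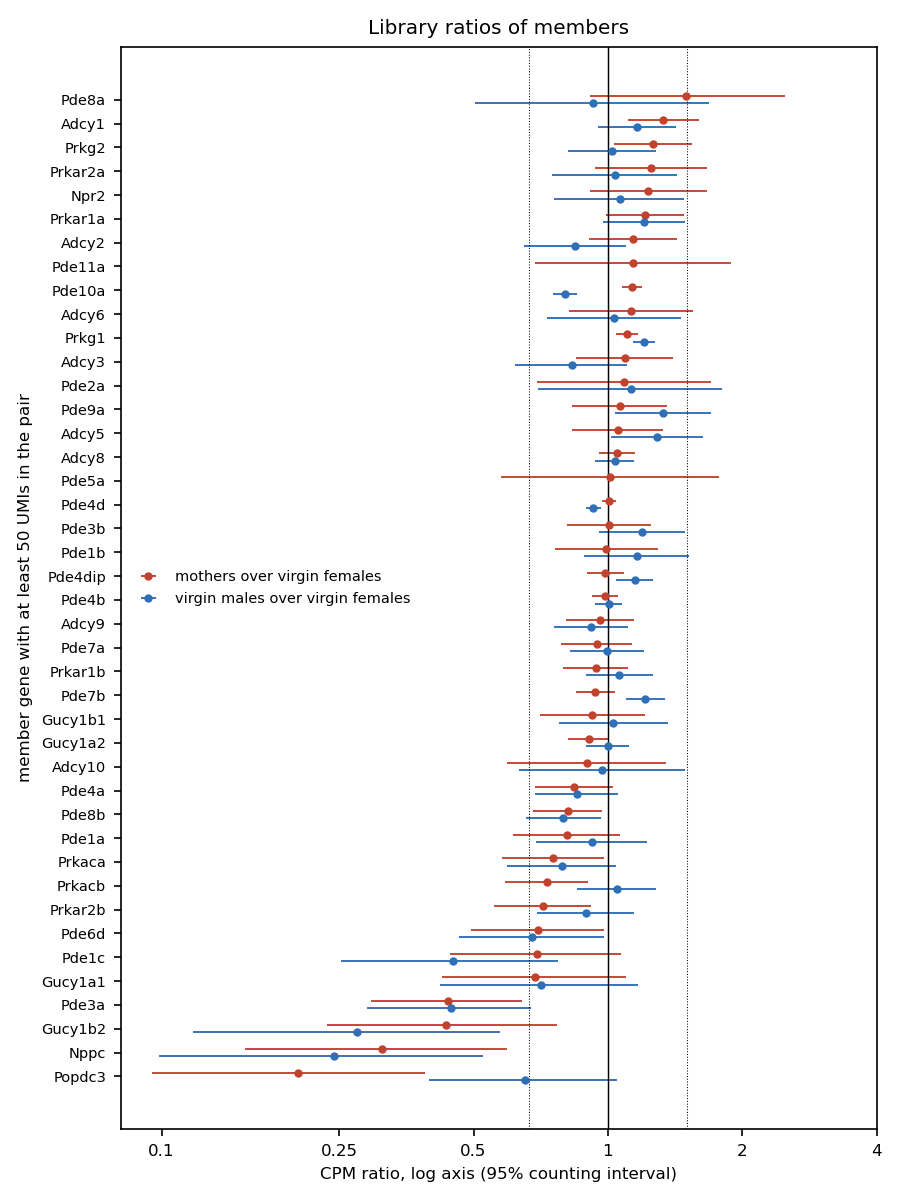
Points give the CPM ratio of each member with at least 50 UMIs in the pair, for mothers over virgin females and virgin males over virgin females, on a log axis with exact 95% counting intervals; dotted lines mark 1.5-fold. Popdc3, Nppc, Gucy1b2 and Pde3a lie below the lower line for mothers, and most members lie within 1.5-fold of 1.

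Popdc3 gave 11 UMIs in mothers, 28 in virgin males and 55 in virgin females, or 4.09 CPM [2.04, 7.31], 13.2 CPM [8.76, 19.1] and 20.2 CPM [15.2, 26.3]. Mothers were lowest, at 0.202-fold [0.0953, 0.390] of virgin females, and their interval did not overlap that of virgin females or of virgin males. Cluster 1 made up 39 of 201 neuronal nuclei in mothers, 53 of 204 in virgin males and 65 of 187 in virgin females. Within cluster 1 Popdc3 stood at 15.8 CPM in mothers, 58.5 CPM in virgin males and 60.1 CPM in virgin females. The ratio there was 0.262 [0.100, 0.580] for mothers over virgin females and 0.973 [0.587, 1.58] for virgin males over virgin females. With clusters weighted equally in each library the log2 ratio of mothers over virgin females was -1.68. Over all neuronal nuclei the ratio of mothers over virgin males was 0.310 [0.139, 0.642] on 39 UMIs, under the minimum.

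Nppc gave 13 UMIs in mothers, 8 in virgin males and 42 in virgin females, or 4.83 CPM, 3.77 CPM and 15.5 CPM. Virgin females were highest, and the ratio to them was 0.313 [0.154, 0.594] in mothers and 0.244 [0.0989, 0.526] in virgin males. A single nucleus gave 9 of the 42 UMIs in virgin females, which were spread over 19 of 187 nuclei. In cluster 1, where 26 of the 42 lay, the ratio was 0.514 [0.189, 1.22] in mothers and 0.141 [0.0163, 0.565] in virgin males.

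Pde3a gave 40 UMIs in mothers, 32 in virgin males and 92 in virgin females, or 14.9 CPM [10.6, 20.2], 15.1 CPM [10.3, 21.3] and 33.8 CPM [27.3, 41.5]. Mothers and virgin males had overlapping intervals, and both lay below virgin females, with ratios of 0.439 [0.295, 0.643] and 0.445 [0.288, 0.673]. Ratios differed by cluster. In cluster 1 the ratio to virgin females was 0.726 [0.404, 1.25] in mothers and 0.478 [0.238, 0.893] in virgin males, and in cluster 0 it was 0.658 [0.329, 1.26] in mothers and 0.604 [0.289, 1.19] in virgin males. For mothers it was 0.468 [0.0686, 2.77] in cluster 3 and 0.473 [0.0633, 3.53] in cluster 4, and cluster 2 gave 0 UMIs against 5 in virgin females. With clusters weighted equally the log2 ratios of Pde3a were -0.75 in mothers and -0.89 in virgin males, past the 1.5-fold limit. The interval used for that setting was still the one of the summed UMIs, so the weighted ratios have no interval of their own. Clusters 0 and 1, where Pde3a was highest, made up a larger share of virgin female nuclei, 61 and 65 of 187, than of mothers, 47 and 39 of 201.

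Gucy1b2, a lesser-known beta subunit gene of soluble guanylyl cyclase, gave 18 UMIs in mothers, 9 in virgin males and 42 in virgin females, or 6.69 CPM, 4.24 CPM and 15.5 CPM. Virgin females were highest, with ratios of 0.433 [0.235, 0.768] in mothers and 0.274 [0.117, 0.572] in virgin males. Its UMIs were spread thinly, in 16 of 201 nuclei of mothers, 9 of 204 of virgin males and 39 of 187 of virgin females. No nucleus held more than 2.

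Pde1c gave 37 UMIs in mothers, 19 in virgin males and 54 in virgin females, or 13.7 CPM, 8.95 CPM and 19.9 CPM. Virgin males stood at 0.451-fold [0.252, 0.772] of virgin females. A single nucleus gave 14 of the 54 UMIs in virgin females, and without the richest nucleus of each library the gene was not called. The clusters disagreed in direction. In cluster 1 mothers had 36.0 CPM against 9.43 CPM in virgin females, a ratio of 3.82 [1.54, 10.3], while in cluster 0 they had 9.04 CPM against 29.8 CPM, a ratio of 0.304 [0.102, 0.754]. The virgin female nucleus with 14 UMIs lies in cluster 0, since no other cluster of that library gave as many. Cluster 0 gave 26 UMIs there, and its ratio without that nucleus was not computed.

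**Figure D5:**
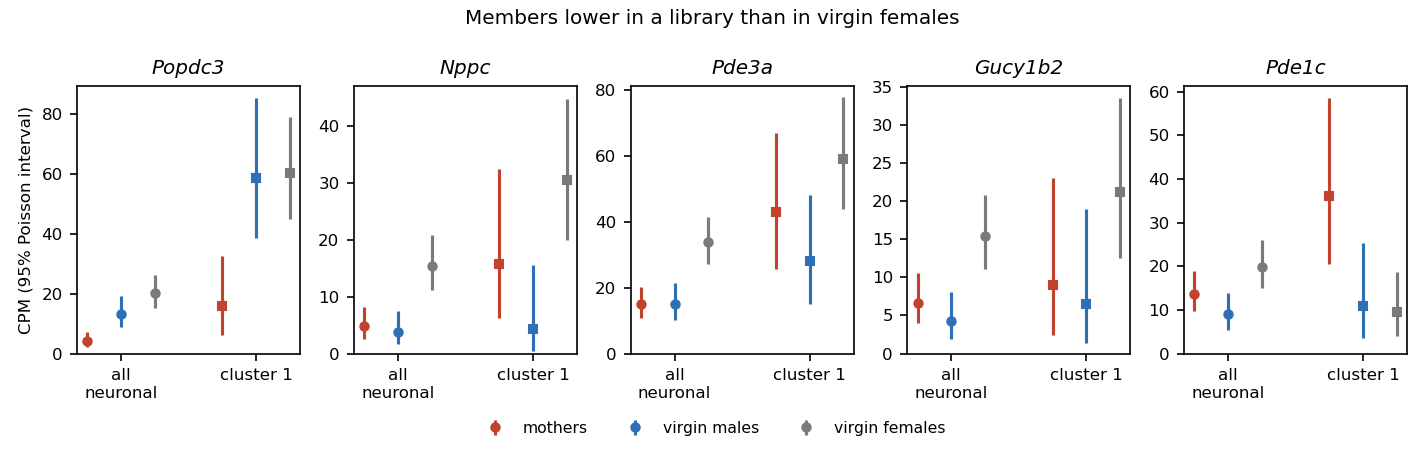
CPM of the 5 called members over all neuronal nuclei (circles) and in cluster 1 (squares) in mothers, virgin males and virgin females, on linear axes from 0 with exact Poisson 95% intervals. For Popdc3 the mothers' point is lowest in both places, and for Pde1c the mothers' cluster 1 point of 36.0 CPM is above the other libraries.

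Members counted deeply enough to show small differences moved by less than the 1.5-fold limit. Prkg1 stood at 1005 CPM in mothers, 1098 CPM in virgin males and 910.1 CPM in virgin females, with ratios to virgin females of 1.10 [1.05, 1.17] and 1.21 [1.14, 1.28]. Prkg1 was highest in cluster 4, which held 34 of 201 neuronal nuclei in mothers. It held 23 of 204 in virgin males and 18 of 187 in virgin females. Prkg1 and Prkg2 summed were lower in mothers than in virgin females in clusters 1, 2 and 4 and higher in clusters 0 and 3. The part of the cluster mix in these ratios was not tested. Pde10a was at 1149 CPM in mothers, 814 CPM in virgin males and 1016 CPM in virgin females, and mothers over virgin males gave 1.41 [1.33, 1.4996]. Pde10a was lowest in virgin males in clusters 0, 1, 3 and 4 and not in cluster 2, where the libraries had 1281 CPM, 1307 CPM and 1436 CPM. Adcy1 was at 103 CPM in mothers, 89.97 CPM in virgin males and 77.3 CPM in virgin females, with a ratio of mothers over virgin females of 1.33 [1.11, 1.60]. Pde11a, under the minimum for pairs with virgin males, gave 36 UMIs in mothers, 9 in virgin males and 32 in virgin females. The members together took 0.787% of neuronal UMIs in mothers, 0.762% in virgin males and 0.775% in virgin females.

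Markers of ependyma and choroid plexus (5 genes) stood at 2.60 CPM in neuronal nuclei of mothers, 353 CPM in those of virgin males and 1.47 CPM in those of virgin females, and 5 virgin male nuclei held at least 10 UMIs of the choroid plexus gene Ttr. By cluster these markers were highest in cluster 1, at 535 CPM. Leaving these 5 out kept the same 4, 4 and 0 members called between libraries and the same 7 marking a cluster. Summed astrocyte markers (5 genes, Gfap at 0) stood at 4.41 to 8.01 CPM in the libraries. Oligodendrocyte markers (5 genes) stood at 34.2 CPM in mothers, 40.5 CPM in virgin males and 47.1 CPM in virgin females, and microglial markers (4 genes) at 136, 119 and 102 CPM. Their part in the member levels was not tested.

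Other genes of the pathway were taken by role. Counts of genes marking a cluster stand beside the 10.2% of all genes measured, and counts called between libraries beside 5.65%, 5.5% and 5.05% in the 3 comparisons. Of 15 A-kinase anchoring proteins, which tether PKA, 14 were in the table, 10 were measured, and none marked a cluster or was called between libraries. Of 7 PKA inhibitors and substrates, 6 were measured and 3 marked a cluster. The PKA inhibitor peptide gene Pkia marked cluster 1 at 2.25-fold above the mean of the others, Pkib cluster 4 at 2.53-fold, and the PKA substrate Arpp21 cluster 4 at 2.15-fold. Of 17 further effectors 8 were measured. Rapgef4, the exchange factor Epac2, marked cluster 1 at 2.07-fold. Mrvi1, a PKG I substrate at the inositol trisphosphate receptor, marked cluster 3 at 5.47-fold, with 121 CPM there against 0.751 CPM in cluster 1 and 1.65 CPM in cluster 4, where Prkg1 was highest.

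Between libraries, Mrvi1 was higher in mothers, at 47.2 CPM, and in virgin males, at 49.9 CPM, than in virgin females (31.3 CPM), at 1.51-fold [1.14, 2.01] and 1.60-fold [1.19, 2.15]. Cluster 3, which it marks, held 35 of 201 neuronal nuclei in mothers, 39 of 204 in virgin males and 17 of 187 in virgin females. Hcn4 was higher in virgin males (32.5 CPM) than in virgin females (20.6 CPM), at 1.58-fold [1.09, 2.29]. It too was highest in cluster 3 in each library, at a mean of 40.4 CPM. The part of the cluster mix in the Mrvi1 and Hcn4 ratios was not tested. Of 12 CREB family genes and coactivators, 9 were measured by cluster and Creb3l2 marked cluster 3 at 5.42-fold. Crem was lower in mothers (23.4 CPM) than in virgin females (37.2 CPM), at 0.630-fold [0.452, 0.871]. Atf1 and Creb3l2 were higher in mothers (45.7 CPM and 17.5 CPM) than in virgin males (28.7 CPM and 9.42 CPM), at 1.59-fold [1.16, 2.20] and 1.85-fold [1.08, 3.30]. None of 7 G protein alpha subunit genes, 8 genes of nitric oxide and natriuretic peptide supply and 2 export pumps marked a cluster or was called, with 7, 2 and 1 of them measured by cluster.

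Some members overlap a gene on the opposite strand in GENCODE M21 (GRCm38), and no source used here says whether counting used the strand. These are Adcy2 (Gm35161), Adcy3 (Cenpo), Adcy6 (Gm29331), Adcy8 (Gm21798), Adcy10 (Gm38325), Npr1 (Gm16048), Npr2 (Gm12473), Npr3 (Gm5144), Pde3a (Gm28523), Pde4dip (Gm31305), Pde5a (4930447N08Rik), Pde6h (Arhgdib), Pde7a (Gm16093), Pde8b (Gm16243 and Gm48420), Pde10a (Gm17087), Pde12 (Arf4), Popdc3 (Gm15934) and Prkg1 (Cstf2t). UMIs of such a pair cannot be told apart.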

How the data were processed

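Sorted nuclei of mothers, virgin males and virgin females were profiled as 3 libraries with 10x Chromium 3′ chemistry, each from 3 pooled mice with 1000 nuclei loaded, per the labels. The deposited tables hold raw UMI counts per gene and nucleus, made with Cell Ranger 5.0.1 on GRCm38/mm10, per the submitters' processing notes. Cell classes, clusters and the percent of mitochondrial UMIs per nucleus are the authors' deposited annotation, with Seurat columns per the file headers. No source used here gives intron counting, strand, nucleus filters or doublet treatment, and no doublets were removed here.

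Nuclei were joined to their annotation by total UMIs and genes, for 603 of 603 nuclei, and recomputed mitochondrial percents were equal. Counts were summed over neuronal nuclei per library and cluster and divided by their total. Levels by cluster are means of 3 libraries weighted equally. Exact Poisson, Clopper-Pearson (shares) and conditional binomial (ratios) 95% intervals were computed with scipy 1.17.1. Values are given for members called between libraries, marking a cluster or at least 2-fold apart between clusters, for Popdc3 and the natriuretic genes, and for pathway genes marking a cluster or called. Others named with values, such as Adcy7, Pde5a and Pde11a, were chosen after their values were seen. The steps were tested on simulated data. Members and lists were chosen with earlier results of these data known, including the lower Popdc3 of mothers. Alternatives changed the nuclei used, scaling, minimum and fold. The result of 1 pathway gene is not reported here.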

Additional observations from a re-analysis of the deposited data

Results flagged for a closer look

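A few members stood higher in the 11 non-neuronal nuclei, which no comparison above uses, than in neuronal nuclei. Pde6h reached 342 CPM [209, 529] in 5 nuclei labelled as ependymal, on 20 UMIs of which 10 came from 1 nucleus, against 3.19 CPM in neurons. Adcy2 reached 473 CPM [153, 1103] in 3 astrocyte nuclei, on 5 UMIs, against 55.5 CPM in neurons. In 2 oligodendrocyte nuclei Pde4b reached 7116 CPM [4867, 10046], on 32 UMIs of which 23 came from 1 nucleus, against 637 CPM in neurons. In the same nuclei Pde8a reached 1112 CPM [361, 2595] on 5 UMIs, against 12.3 CPM in neurons. These intervals cover counting error only, and so few nuclei give no spread between them.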

How the results depend on the processing

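No paired analysis was possible because each group has 1 library and no result comes from a test. Of 52 counts of members under alternatives, 41 stayed within 1.5 times the reported count and 11 did not. Of 72 log2 ratios between libraries, 2 were flagged as moved. They were Pde3a for mothers over virgin females in thinned nuclei (-1.80) and Pde1c for virgin males over virgin females as a mean over nuclei (-2.79). Of 63 log2 ratios of a highest cluster, 5 were flagged as moved, all of Pde1a, Prkg1, Adcy8 or Pde7b. None of these log2 ratios reversed. An equal count can hold other genes: without the 5% of nuclei with most UMIs, virgin males over virgin females again gave 4, of which 2 were shared (Nppc and Gucy1b2 left, Pde1a and Pde6d entered). For virgin males over virgin females the 4 called members became 1 without the richest nucleus of each gene, where Nppc (log2 ratio -1.88) and Gucy1b2 (-1.97) fell under 50 UMIs, and 2, none of them shared, in thinned nuclei. For mothers over virgin males the 0 became 1 in thinned nuclei (Prkacb), 2 with a minimum of 20 UMIs (Pde11a, Popdc3), 3 with no minimum beyond 1 UMI and 2 at 1.5-fold whatever the interval. For mothers over virgin females thinned nuclei gave 3, none of them shared with the 4 reported. The 7 members marking a cluster became 7 to 12 without 1 library (5 of the 7 without virgin females were shared, Adcy1 and Adcy8 having left), 12 with the UMIs of the libraries summed, 11 with no minimum beyond 1 UMI, 11 at 1.5-fold and 4 at 3-fold. Thinned nuclei gave 5, of which 3 (Pde1a, Pde7b and Prkg1) were shared. Leaving out nuclei with Ttr was chosen after seeing the data and changed no count. The log2 ratio of Popdc3 for mothers over virgin females ran from -2.54 to -1.68. The causes were not tested. Depth limits members under 50 UMIs in a pair, and with 1 library a group the spread between mice is unknown.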
